A study of Homo sapiens with 18 samples.

Results

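The SR splicing factors described here are 10 genes, SRSF1, SRSF2, SRSF3, SRSF4, SRSF5, SRSF6, SRSF7, SRSF9, SRSF10 and SRSF11, out of 60252 gene IDs in the count files. They were chosen by symbol, all 10 were found, and all 10 passed the low-count filter that kept 21285 genes. RNA came from ZR-75-1, an established luminal breast cancer cell line positive for the estrogen receptor. A line with a knockdown of ADAR and a control line, which the labels call SHC, were each given 100 nM triptolide, given DMSO as vehicle, or left untreated, for 16 h in medium with little serum. Triptolide blocks the XPB subunit of TFIIH and with it the start of RNA polymerase II transcription; ADAR edits adenosine to inosine within double-stranded RNA. In the order used below the 6 groups were knockdown cells with triptolide, control cells with triptolide, knockdown cells with DMSO, control cells with DMSO, untreated knockdown cells and untreated control cells. Each held 3 libraries, labelled biological replicates 1 to 3. How the knockdown was made, and from how many clones each line came, is not given in the sources used here, so line effects rest on 1 line each.

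SR proteins carry RNA recognition motifs at one end and a tail rich in arginine and serine, the RS domain, at the other. They bind enhancer sequences in exons and recruit the U1 particle and U2AF to the neighbouring splice sites, and several also link splicing to mRNA export. SRPK and CLK kinases phosphorylate the RS domain, which sets their place in the nucleus and their activity. Many SR genes hold an ultraconserved "poison" exon whose inclusion sends the mRNA to nonsense-mediated decay, a way by which SR proteins hold their own levels and each other's in check. Counts per gene do not separate such isoforms.

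Libraries held between 26709657 and 35674502 counts in genes. The targeted gene, ADAR, stood in knockdown cells at 31.2 to 44.4% of its level in the equally numbered control library under triptolide, at 53.6 to 77.5% with DMSO and at 51 to 74% untreated, so it was lower in all 9 pairs. By edgeR's quasi-likelihood test its log2 change was -1.46 ± 0.34 (SE; adjusted p = 0.306, and 0.000108 with the replicate number as a block), -0.69 ± 0.33 (1 and 0.126) and -0.70 ± 0.33 (1 and 0.117) in these treatments. All 10 luminal epithelial markers reached 1 CPM (counts per 1000000 counts of the library, scaled by the TMM method) on average and summed to 3360 to 7320 CPM per library. Of 6 leukocyte, 6 stromal and 3 endothelial markers, 1 each did, with sums of 3.58 to 10.1, 8.54 to 33.6 and 0.806 to 5.16 CPM. Of all counts in genes, 42.7 to 55.2% were mitochondrial ribosomal RNA in the triptolide libraries and 20.2 to 37.1% in the others, and its part in the results below was not tested.

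In GRCh37 the 10 genes lie as follows: SRSF4 at chr1:29474255-29508412, SRSF10 at chr1:24290837-24307417 and SRSF11 at chr1:70671365-70718735, SRSF7 at chr2:38970741-38978636, SRSF3 at chr6:36562130-36573377, SRSF9 at chr12:120899475-120933749, SRSF5 at chr14:70193617-70238722, SRSF1 at chr17:56078280-56084707, SRSF2 at chr17:74730197-74733415 and SRSF6 at chr20:42086533-42094686. SRSF3, SRSF5, SRSF6 and SRSF11 are on the plus strand and the others on the minus strand. Exonic lengths, with all annotated UTRs and retained segments, ran from 2976 bases for SRSF2 to 11860 for SRSF10. Annotated SR pseudogenes held at most 22 counts in any library. Of the SRSF1 exonic bases 32.7% are shared with a same-strand gene annotation, ENSG00000266086, which averaged 0.278 counts per library. Reads over shared bases can fall in the tally of ambiguous reads, so this count does not tell how many SRSF1 reads were left out. In RefSeq's promoter table for GRCh38.p14 (250 bases before to 50 after each start), 9 of the 10 genes had 11 promoters; SRSF2 was not matched. The promoters of SRSF4, which changed most under triptolide, of SRSF3, which lost the most reads, and of SRSF9, the gene that lay above 0, are shown for comparison. Capitals mark 3 short motifs searched on both strands, TATAAA (the TATA box), CCAAT and CCGCCC (a GC box), and no marked match overlaps another.
SRSF4, chr1:29181851-29182150, minus strand: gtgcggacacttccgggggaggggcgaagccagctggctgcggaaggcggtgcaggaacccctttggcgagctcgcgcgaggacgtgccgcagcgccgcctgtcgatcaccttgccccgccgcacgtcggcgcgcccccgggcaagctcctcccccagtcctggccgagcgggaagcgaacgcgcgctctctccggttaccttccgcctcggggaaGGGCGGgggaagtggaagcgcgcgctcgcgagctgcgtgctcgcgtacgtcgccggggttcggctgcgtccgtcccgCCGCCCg
SRSF3, chr6:36594112-36594411, plus strand: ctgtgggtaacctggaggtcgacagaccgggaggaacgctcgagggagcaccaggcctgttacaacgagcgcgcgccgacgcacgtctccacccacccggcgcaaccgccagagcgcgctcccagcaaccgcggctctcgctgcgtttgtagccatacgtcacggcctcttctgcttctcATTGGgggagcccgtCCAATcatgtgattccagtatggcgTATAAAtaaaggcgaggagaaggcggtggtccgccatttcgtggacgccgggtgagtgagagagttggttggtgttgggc
SRSF9, chr12:120469699-120469998, minus strand: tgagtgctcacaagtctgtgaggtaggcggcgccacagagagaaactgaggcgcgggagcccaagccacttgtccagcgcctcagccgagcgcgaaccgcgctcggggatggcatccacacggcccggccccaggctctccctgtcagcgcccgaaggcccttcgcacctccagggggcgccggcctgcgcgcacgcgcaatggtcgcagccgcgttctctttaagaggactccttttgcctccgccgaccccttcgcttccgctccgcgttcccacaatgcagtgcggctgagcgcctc

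The SRSF4 window held 2 GC boxes and no TATAAA or CCAAT, the SRSF3 window 1 TATAAA and 2 CCAAT, and the SRSF9 window none of the 3 motifs. Nor were any found in the windows of SRSF1, SRSF5 and SRSF10 or in the SRSF11 window at chr1:70205446-70205745, so their absence was not particular to SRSF9. Over all 35116 promoters of the table, 45% held CCGCCC, 34.6% CCAAT and 11.5% TATAAA. All 11 windows were rich in CpG, with 17 to 48 CpG dinucleotides against a median of 14; SRSF4 had 48, SRSF9 33 and SRSF3 30. These are matches of letters in a fixed window and say nothing of which factors bind there.

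Before triptolide the 10 mRNAs spanned a wide range of levels. Per kilobase of exon, untreated control cells had most of SRSF1, a shuttling activator of splicing that can act as an oncoprotein, at 39 ± 8.19 CPM per kb (SD, n = 3). SRSF7, an SR protein with a zinc knuckle and an adaptor for mRNA export, followed at 33.4 ± 7.27. SRSF3, the smallest SR protein, which also serves in mRNA export and the choice of 3′ ends, had 32.5 ± 4.99 CPM per kb. SRSF2, which stays in the nucleus and also acts in transcription elongation, had 31.5 ± 10.4, SRSF6 28.8 ± 5.07 and SRSF5 24.3 ± 2.02 CPM per kb. The ranges of neighbours overlapped from SRSF1 down to SRSF5. Below a gap came SRSF9 at 12.7 ± 3.12 CPM per kb (9.8 to 16), then SRSF11 at 8.67 ± 0.564 (8.26 to 9.32), SRSF4 at 5.72 ± 0.588 (5.1 to 6.27) and SRSF10 at 3.88 ± 0.594 (3.33 to 4.51), with no overlap between neighbours from SRSF5 down. This order depends on the length used where exons are shared with other genes. Per kilobase of unshared exon, SRSF1 stood at 60 CPM in untreated control cells, SRSF2 at 43.5, second in the order, and SRSF9 at 23.8, beside SRSF5 at 24.3, so the gap above SRSF9 was not seen on that scale.

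Under triptolide the order per kilobase of all exons changed, and it was the same in both lines. Knockdown cells had 28.7 ± 9.66 CPM per kb of SRSF1, 20 ± 4.92 of SRSF5, 18.7 ± 8.46 of SRSF2, 15.1 ± 2.97 of SRSF9, 13.7 ± 7.38 of SRSF7, 12.1 ± 4.1 of SRSF3 and 11.4 ± 1.38 of SRSF6. Control cells had 30.6 ± 7.67, 22.3 ± 4.25, 19.8 ± 6.84, 16.8 ± 3.02, 14.2 ± 7.12, 13.2 ± 4.3 and 11.7 ± 1.81 CPM per kb of the same genes. Neighbours overlapped throughout this upper stretch. SRSF11 (4.88 ± 0.312 in knockdown and 5.23 ± 0.954 in control cells), SRSF10 (1.92 ± 0.644 and 1.94 ± 0.643) and SRSF4 (1.28 ± 0.109 and 1.29 ± 0.28 CPM per kb) stood below. SRSF4 thus passed below SRSF10 on the mean, but their ranges met, at 1.16 to 1.38 against 1.35 to 2.62 CPM per kb in knockdown cells and 0.994 to 1.55 against 1.22 to 2.44 in control cells. Only 2108 of the 3957 exonic bases of SRSF9 are shared with no other gene, and per kilobase of these it had 28.3 CPM in knockdown and 31.5 CPM in control cells with triptolide. On the same scale SRSF1 had 44.3 and 47.2 CPM and SRSF2 25.9 and 27.4 CPM, so that both SRSF9 and SRSF2 stood above SRSF5, SRSF9 the higher.

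**Figure D1:**
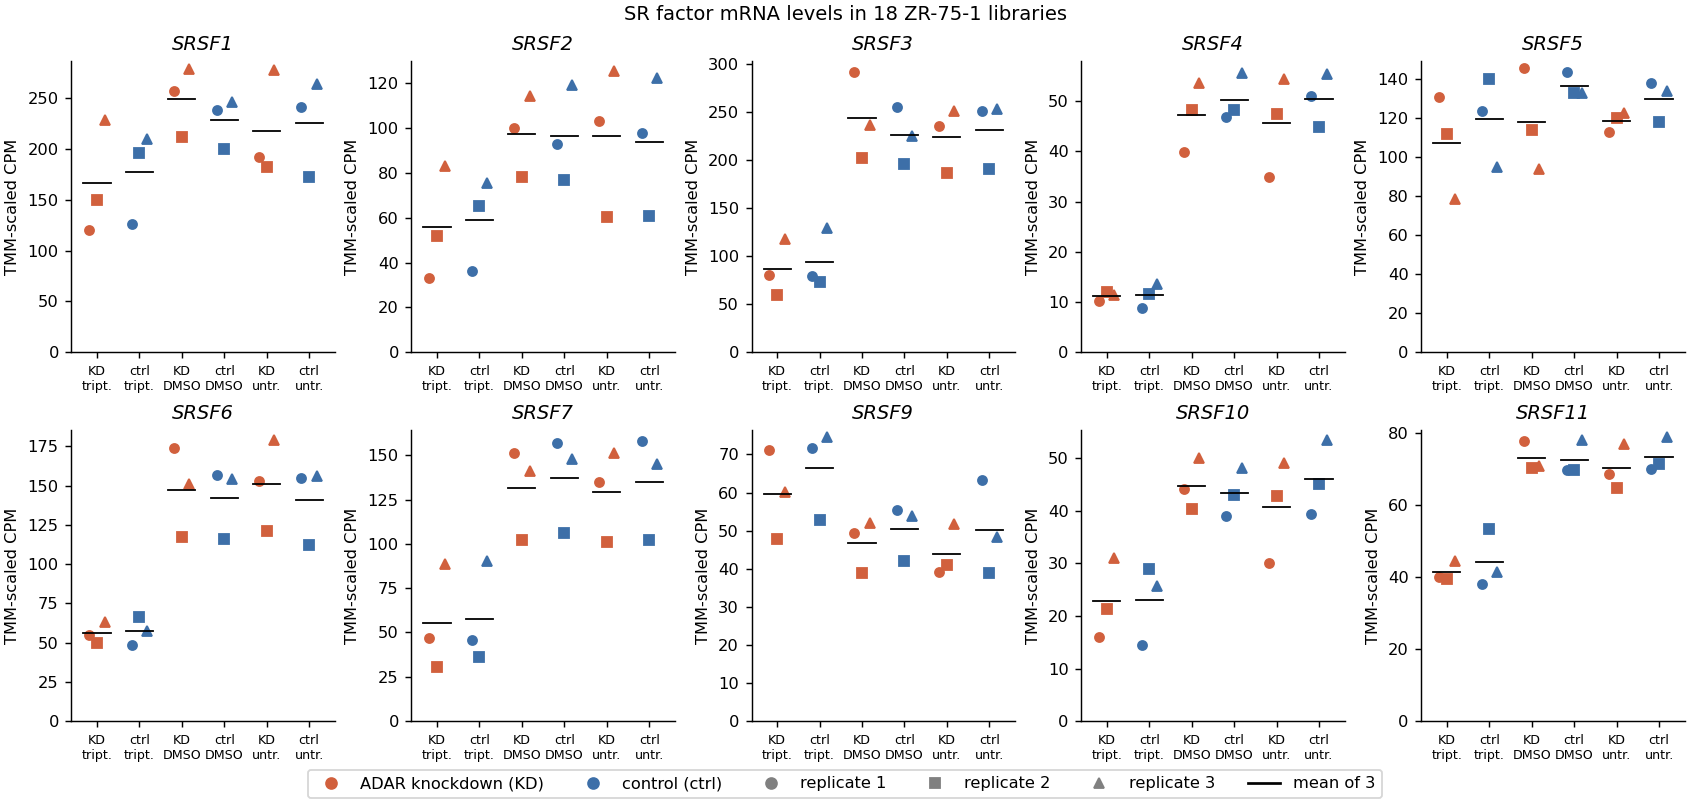
TMM-scaled CPM of the 10 SR factor mRNAs in each of 18 libraries, by group (KD, ADAR knockdown; ctrl, control); symbols give the replicate number and bars the mean of 3. SRSF4 stood at 8.76 to 13.7 CPM in the 6 triptolide libraries and at 34.9 CPM or more in the other 12, while SRSF1, SRSF2, SRSF5 and SRSF9 overlapped between treatments. SRSF10 overlapped only through untreated knockdown replicate 1, at 30.1 CPM against 31 CPM in knockdown replicate 3 with triptolide.

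Set against DMSO, triptolide lowered the mRNAs of SRSF3, SRSF4, SRSF6, SRSF7, SRSF10 and SRSF11 in both lines. The largest difference was that of SRSF4, and SRSF9 lay above 0. The 10 genes together summed to 661 ± 126 CPM in knockdown cells with triptolide, against 1200 ± 159 with DMSO (SD, n = 3), and to 709 ± 109 CPM in control cells with triptolide, against 1180 ± 131 with DMSO. In bulk RNA, fewer cells with an mRNA and less of it per cell cannot be told apart. By edgeR's quasi-likelihood test at an adjusted p under 0.05, 0 members were called higher and 6 lower with triptolide in each line. Over all genes tested, 16.7% were called higher and 18.9% lower in knockdown cells, and 14.8% higher and 16% lower in control cells. With the replicate number as a block, 1 member was called higher and 8 lower in knockdown cells, where 28.9% and 28% of all genes were, and 1 higher and 7 lower in control cells, where 26% and 25.9% were. Knockdown cells gave a median log2 change of -0.90 over the members, against 0.04 over all genes, and control cells one of -0.81, against 0.03.

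The triptolide and DMSO libraries did not overlap for 6 members in knockdown and 7 in control cells, all lower, while 24.7% and 22.2% of all genes lay lower without overlap. The same 6 were SRSF3, SRSF4, SRSF6, SRSF7, SRSF10 and SRSF11, and SRSF2 joined them in control cells. Within replicate numbers, SRSF1, SRSF2, SRSF3, SRSF4, SRSF6, SRSF7, SRSF10 and SRSF11 were lower with triptolide in 6 of 6 pairs over both lines, SRSF5 in 5 and SRSF9 in 0. The share of all genes lower in 6 of 6 pairs was not computed, and both lines share the replicate numbers. Other scalings matter to the triptolide changes, since they shift the median of all genes. It stood at -0.67 in knockdown and -0.60 in control cells with plain library totals, at -1.36 and -0.79 with scaling to 13 mitochondrial mRNAs, and at 0.10 and 0.09 with DESeq2 size factors. The 6 called members stayed lower and called under each of these, at -2.77 to -1.54 in knockdown and -2.80 to -1.36 in control cells with library totals, and at -3.47 to -2.24 and -2.99 to -1.46 with mitochondrial scaling. Calls over all genes split into 3554 higher and 4029 lower in knockdown cells and 3158 and 3403 in control cells with TMM, but into 1497 and 8509 and 1596 and 7581 with library totals, and 821 and 11443 and 1063 and 6008 with mitochondrial scaling.

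SRSF4, also known as SRp75, has the longest RS domain of the classical SR proteins. It had 10.3, 12.1 and 11.5 CPM in replicates 1, 2 and 3 of triptolide-treated knockdown cells, against 39.8, 48.3 and 53.5 CPM with DMSO. Control cells had 8.76, 11.6 and 13.7 CPM with triptolide, against 46.9, 48.2 and 55.6 CPM with DMSO. All 6 triptolide libraries were thus far below all 6 DMSO libraries. The fitted log2 change was -2.06 ± 0.21 in knockdown cells, 4.17-fold lower (edgeR adjusted p = 3.04e-06), and -2.15 ± 0.21 in control cells, 4.44-fold lower (2.96e-06). Its 6 pairs, between -2.42 and -1.96, spanned the narrowest log2 range of the 6 called members.

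SRSF6, an activator known as SRp55, had 55, 49.8 and 63.2 CPM in knockdown cells with triptolide, against 174, 117 and 151 CPM with DMSO. Control cells had 48.6, 66.3 and 57.3 CPM with triptolide, against 157, 116 and 154 CPM with DMSO. The groups did not overlap in either line, and with DMSO replicate 2 was lowest in both lines. SRSF6 fell 2.63-fold in knockdown cells (log2 -1.40 ± 0.22, edgeR adjusted p = 0.000117) and 2.48-fold in control cells (-1.31 ± 0.22, 0.00024).

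SRSF3 and SRSF7 are the SR proteins best known as adaptors for the export receptor NXF1, and they shared a replicate pattern. SRSF3 had 80.8, 59.9 and 118 CPM in knockdown cells with triptolide, against 291, 202 and 236 CPM with DMSO. Its control-line values were 78.9, 73.2 and 129 CPM with triptolide, against 255, 196 and 225 CPM with DMSO. Replicate 3 was the highest under triptolide in both lines, yet below every DMSO library. The log2 change was -1.50 ± 0.26 in knockdown cells, 2.82-fold lower (edgeR adjusted p = 0.000329), and -1.27 ± 0.26 in control cells, 2.41-fold lower (0.00144). Without the libraries numbered 1 the control value was -1.06, with an adjusted p of 0.0546 and no block. With the block and all libraries it was -1.30, with an adjusted p of 6.15e-07.

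SRSF7 had 46.7, 30.7 and 88.5 CPM in knockdown cells with triptolide, against 151, 102 and 141 CPM with DMSO. In control cells it had 46, 36 and 90.1 CPM with triptolide, against 157, 106 and 148 CPM with DMSO. Replicate 3 stood apart under triptolide in both lines, but not with DMSO or untreated, where replicate 2 was lowest. The log2 change within replicate 3 was -0.67 in knockdown and -0.71 in control cells, against -1.69 and -1.73 in replicates 1 and 2 of knockdown cells and -1.77 and -1.57 in those of control cells. The fit over all 3 gave 2.37-fold lower in knockdown cells (log2 -1.24 ± 0.36, edgeR adjusted p = 0.0123) and 2.39-fold lower in control cells (-1.26 ± 0.36, 0.0134). The call was lost without triptolide replicate 1 (adjusted p = 0.0506 in knockdown and 0.0587 in control cells), without triptolide replicate 2 (0.0607 and 0.0619) and without all libraries numbered 1 (0.167 and 0.189). These settings did not use the replicate block. With the block and all libraries, edgeR's adjusted p was 1.18e-05 in knockdown and 1.54e-05 in control cells.

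SRSF10 differs from the classical members in that, when dephosphorylated in mitosis or heat shock, it represses splicing. It had 16, 21.3 and 31 CPM in knockdown cells with triptolide, against 44.1, 40.3 and 50 CPM with DMSO. Control cells had 14.4, 28.9 and 25.8 CPM with triptolide, against 39.1, 43.1 and 48.2 CPM with DMSO. Triptolide replicate 1 was the lowest library of both lines, and the groups did not overlap. SRSF10 fell 1.96-fold in knockdown cells (log2 -0.97 ± 0.27, edgeR adjusted p = 0.00978) and 1.89-fold in control cells (-0.92 ± 0.27, 0.0162). In knockdown cells the call was lost without triptolide replicate 1 (0.0533) and without the libraries numbered 2 (0.0685). In control cells it was lost without triptolide replicate 1 (0.0805), without DMSO replicate 3 (0.0541) and without the libraries numbered 2 (0.0511) or 3 (0.0892). These settings had no block. With the block and all libraries, edgeR's adjusted p for SRSF10 was 1.98e-05 in knockdown and 5.87e-05 in control cells.

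SRSF11, known as p54, is an SR-related factor that contacts U2AF. It had 40.1, 39.6 and 44.4 CPM in knockdown cells with triptolide, against 77.9, 70.2 and 70.9 CPM with DMSO. Its control-line values were 38, 53.4 and 41.4 CPM with triptolide, against 69.7, 69.9 and 78.2 CPM with DMSO. Its libraries were close together within groups, apart from a higher triptolide replicate 2 in control cells. SRSF11 fell 1.77-fold in knockdown cells (log2 -0.82 ± 0.16, edgeR adjusted p = 0.000921) and 1.64-fold in control cells (-0.71 ± 0.16, 0.00306). The control call was lost without the libraries numbered 3 (-0.62, 0.0879), in a fit with no block. With the block and all libraries the control value was -0.71, with an adjusted p of 9.74e-05.

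SRSF1 and SRSF2 were lower in each pair but spread widely. SRSF1 had 120, 150 and 228 CPM in knockdown cells with triptolide, against 257, 211 and 278 CPM with DMSO. In control cells it had 126, 196 and 209 CPM with triptolide, against 238, 200 and 246 CPM with DMSO. Replicate 1 with triptolide was the lowest library of each line, and the groups overlapped in both lines. Neither line was called on the TMM scale (log2 -0.58 ± 0.26 in knockdown cells, edgeR adjusted p = 0.0867, and -0.36 ± 0.26 in control cells, 0.305). With the replicate block the knockdown line was called (0.0035) and the control line was not (0.0654). SRSF1 was called lower in both lines with library totals (-1.29, adjusted p = 0.000967, in knockdown cells and -1.03, 0.00588, in control cells) and with mitochondrial scaling (-2.03, 0.000114, and -1.20, 0.0188), and in knockdown cells with no low-count filter (-0.67, 0.0462).

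SRSF2 had 33, 51.6 and 82.8 CPM in knockdown cells with triptolide, against 100, 78 and 114 CPM with DMSO. Control cells had 36.2, 65.1 and 75.4 CPM with triptolide, against 92.5, 76.9 and 119 CPM with DMSO. The groups overlapped in knockdown cells, through triptolide replicate 3, and not in control cells. The log2 change was -0.80 ± 0.36 in knockdown cells (edgeR adjusted p = 0.0866, and 0.00823 with the block) and -0.71 ± 0.35 in control cells (0.142, and 0.0265 with the block). SRSF2 was also called lower in both lines with library totals (-1.51, adjusted p = 0.00312, in knockdown cells and -1.38, 0.00652, in control cells), with mitochondrial scaling (-2.26, 4.55e-05, and -1.55, 0.00398) and with no low-count filter (-0.89, 0.00568, and -0.83, 0.0122). Without triptolide replicate 3 of knockdown cells, SRSF1 and SRSF2 were called lower in that line without the block too (log2 -0.90, adjusted p = 0.0166, and -1.22, 0.0206). Of the SRSF2 exonic bases 27.7% are shared with MFSD11 on the other strand, whose log2 change was 0.46 ± 0.21 in knockdown (adjusted p = 0.0943) and 0.58 ± 0.21 in control cells (0.0414). Whether counting used the strand is not given in the sources used here, so reads from the shared bases cannot be assigned to either gene for certain.

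SRSF5, known as SRp40, was the member whose level differed least on the TMM scale and with DESeq2 size factors; with library totals and mitochondrial scaling SRSF9 differed least. It had 131, 112 and 78.5 CPM in knockdown cells with triptolide, against 146, 114 and 93.9 CPM with DMSO. Its control-line values were 124, 140 and 94.9 CPM with triptolide, against 144, 133 and 133 CPM with DMSO. The groups overlapped in both lines, and triptolide replicate 3 was the lowest library of each, opposite to SRSF3 and SRSF7. The log2 difference was -0.14 ± 0.21 in knockdown cells (edgeR adjusted p = 0.618) and -0.19 ± 0.21 in control cells (0.521), and the block did not change the call (0.419 and 0.273). With library totals it was -0.87 (0.00393) and -0.83 (0.0065), and with mitochondrial scaling -1.52 in knockdown cells (0.00371), scales on which the median of all genes is itself below 0.

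SRSF9, known as SRp30c, was the member on the other side of 0, on the TMM scale and with DESeq2 size factors. It had 71.2, 47.7 and 60.2 CPM in knockdown cells with triptolide, against 49.3, 38.9 and 52.1 CPM with DMSO. In control cells it had 71.8, 52.7 and 74.7 CPM with triptolide, against 55.5, 42 and 53.8 CPM with DMSO. It was higher with triptolide in 6 of 6 pairs, by 0.21 to 0.53 on the log2 scale, but the groups overlapped because replicate 2 was low in both. The fit gave 0.35 ± 0.22 in knockdown cells (edgeR adjusted p = 0.232, and 0.0344 with the block) and 0.40 ± 0.22 in control cells (0.193, and 0.02 with the block). The direction turned with library totals, to -0.38 in knockdown and -0.23 in control cells, and with mitochondrial scaling, to -1.10 (adjusted p = 0.0201) and -0.48 (0.364). On each of those scales SRSF9 stood above the median of all genes, which was -0.67 and -0.60, and -1.36 and -0.79. SRSF9 shares 43.6% of its exonic bases with GATC on the other strand and 3.13% with the non-coding NRAV on its own. GATC changed by -0.45 ± 0.22 in knockdown (adjusted p = 0.115) and -0.35 ± 0.22 in control cells (0.234), and NRAV fell by 1.23 (8.58e-05) and 1.07 (0.000326) on the log2 scale.

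**Figure D2:**
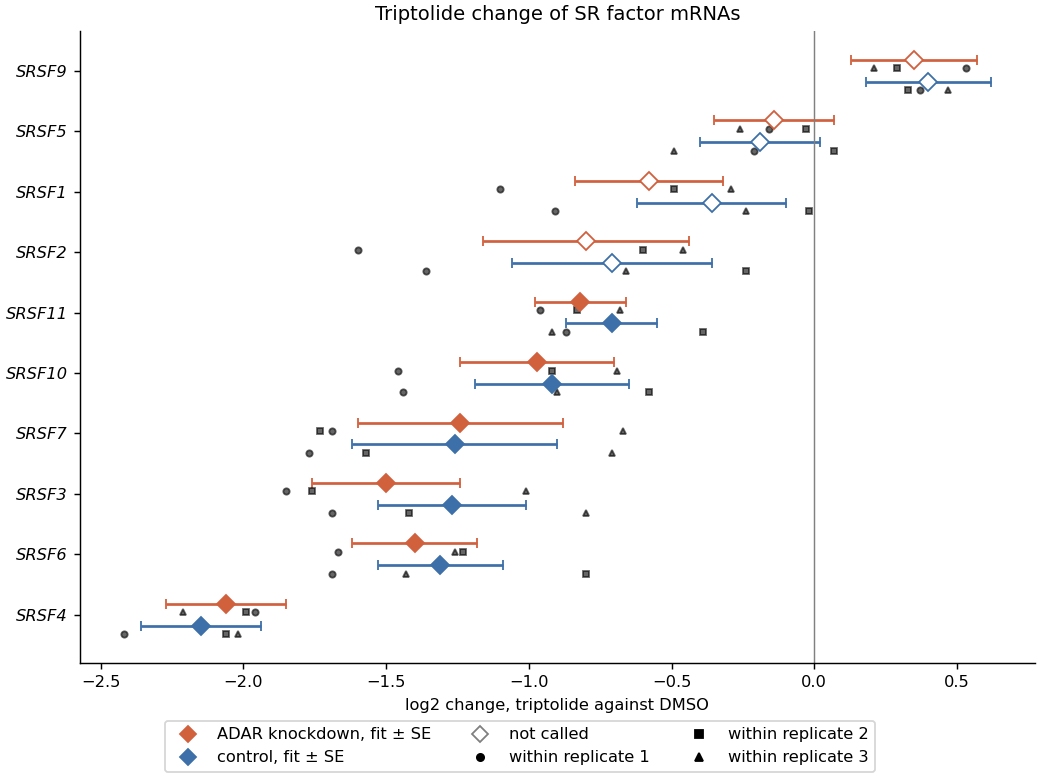
Log2 change of each SR factor mRNA with triptolide against DMSO, for ADAR knockdown (upper of each pair) and control cells; diamonds are the fit over 18 libraries with its SE, open where not called, and small symbols the change within each replicate number. SRSF4 lay lowest at -2.06 and -2.15, and SRSF9 alone lay above 0 on this TMM scale, a direction that library totals and mitochondrial scaling turned.

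The make-up of the family also differed, which no scaling of libraries can touch, since each share is a gene's counts over the 10 genes' counts in the same library. SRSF9 made up 9.19 ± 2.29% of family counts in knockdown cells with triptolide, against 3.90 ± 0.261% with DMSO, and 9.53 ± 2.43% in control cells with triptolide, against 4.25 ± 0.177% with DMSO. SRSF4 made up 1.75 ± 0.344% in knockdown cells with triptolide, against 4.01 ± 0.906% with DMSO, and 1.59 ± 0.105% in control cells with triptolide, against 4.28 ± 0.486% with DMSO. Neither gene's libraries overlapped between the treatments. SRSF3, the largest contributor with SRSF1 before triptolide, held 12.8 ± 2.14% in knockdown cells with triptolide, against 20.2 ± 1.47% with DMSO, and 13.1 ± 2.89% in control cells with triptolide, against 19.1 ± 1.26% with DMSO.

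SRSF1 held 24.8 ± 4.36% of family counts in knockdown cells with triptolide, against 20.8 ± 1.56% with DMSO, and 24.7 ± 3.04% in control cells with triptolide, against 19.3 ± 0.276% with DMSO. SRSF5 held 16.9 ± 6.33% in knockdown cells with triptolide, against 9.91 ± 2.03% with DMSO, and 17.3 ± 4.92% in control cells with triptolide, against 11.6 ± 1.18% with DMSO, with overlap between treatments in both lines. The shares of SRSF2 (8.24 ± 2.49% against 8.12 ± 0.943% in knockdown cells) and SRSF11 (6.34 ± 0.738% against 6.15 ± 0.629%) differed by less than their spread. In CPM, SRSF3 accounted for 29.3% of the family's summed difference of -536 CPM in knockdown cells and 27.9% of -473 CPM in control cells. SRSF6 followed with 17% and 17.9%, SRSF1 and SRSF7 with 10.8 to 16.8%, and SRSF4, at its low starting level, gave 6.69% and 8.23%.

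**Figure D3:**
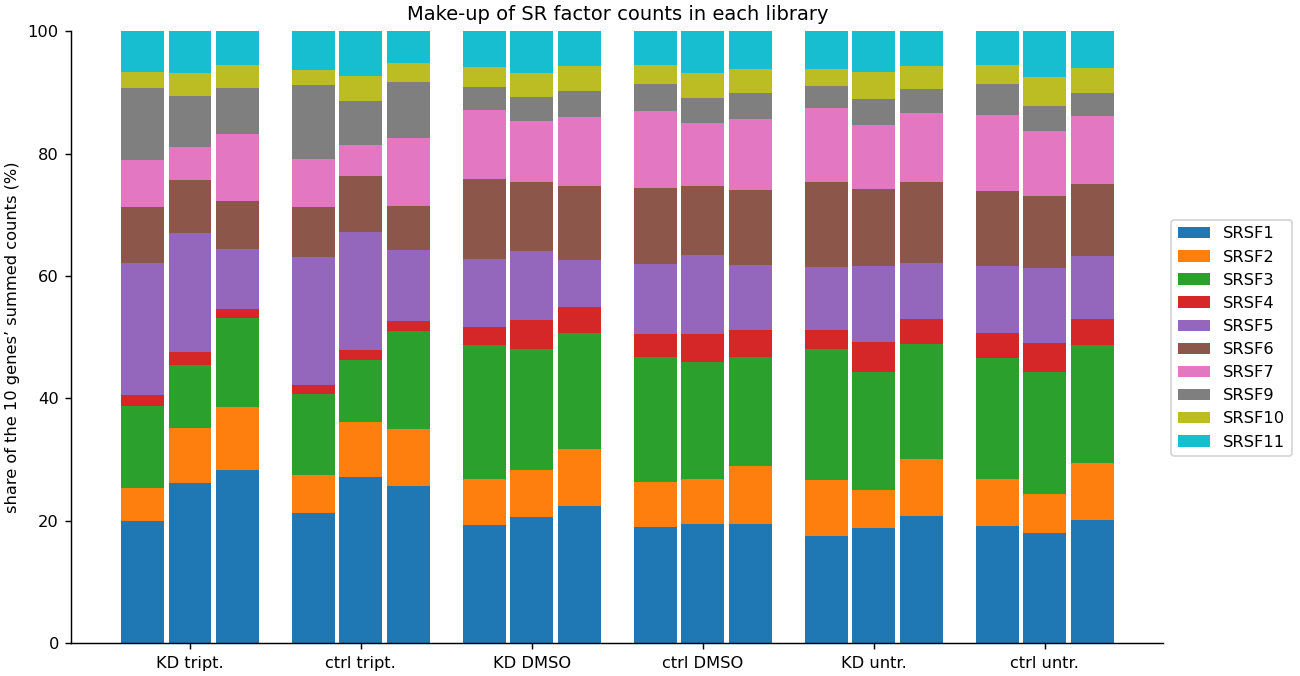
Share of each SR factor in the summed counts of the 10 genes, in percent, for each of 18 libraries; the 3 bars of a group are replicates 1 to 3 (KD, ADAR knockdown; ctrl, control). SRSF9 averaged 9.19% in knockdown and 9.53% in control cells with triptolide, against 3.90% and 4.25% with DMSO, and SRSF4 1.75% and 1.59%, against 4.01% and 4.28%.

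Whether ADAR knockdown altered the response was asked by the interaction of line and triptolide. No member was called by edgeR (0 of 10 with or without the block, and 0 at an unadjusted p under 0.05), and of all genes 0% were called in either fit. The share of all genes at an unadjusted p under 0.05 was not computed. The interaction, positive where triptolide left more in knockdown cells, ran from -0.23 ± 0.36 for SRSF3 to 0.09 ± 0.29 for SRSF4, with a median of -0.07. Its standard errors were 0.23 to 0.50, the largest for SRSF2 and SRSF7. With the block they were 0.35 for SRSF2, 0.28 for SRSF7 and 0.18 to 0.24 for the others. A difference must be several times its SE to be called, so differences between the lines well above these values could also be missed.

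Knockdown and control cells in the same treatment did not separate in any member. With triptolide the log2 changes ran from -0.16 ± 0.21 for SRSF5 to 0.00 ± 0.21 for SRSF4, with DMSO from -0.21 ± 0.21 for SRSF5 to 0.13 ± 0.26 for SRSF1, and untreated from -0.19 ± 0.22 for SRSF9 to 0.10 ± 0.21 for SRSF6. No member was called in these 3 comparisons by edgeR, with or without the block. None reached an unadjusted p under 0.05, and the libraries of the 2 lines overlapped for all 10 members in each. The shares of all genes for which this held were not computed, so these counts tell nothing particular to the members. Few other genes were called: 0.0658% with triptolide (0.625% with the block), 0.0987% with DMSO (0.583%) and 0.0987% untreated (0.583%). The lowest adjusted p of a member with the block was 0.846 with triptolide, 0.892 with DMSO and 0.947 untreated. Over the 9 pairs of knockdown and control libraries, the widest departures were -0.69 for SRSF9 and -0.55 for SRSF4, both in untreated replicate 1.

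**Figure D4:**
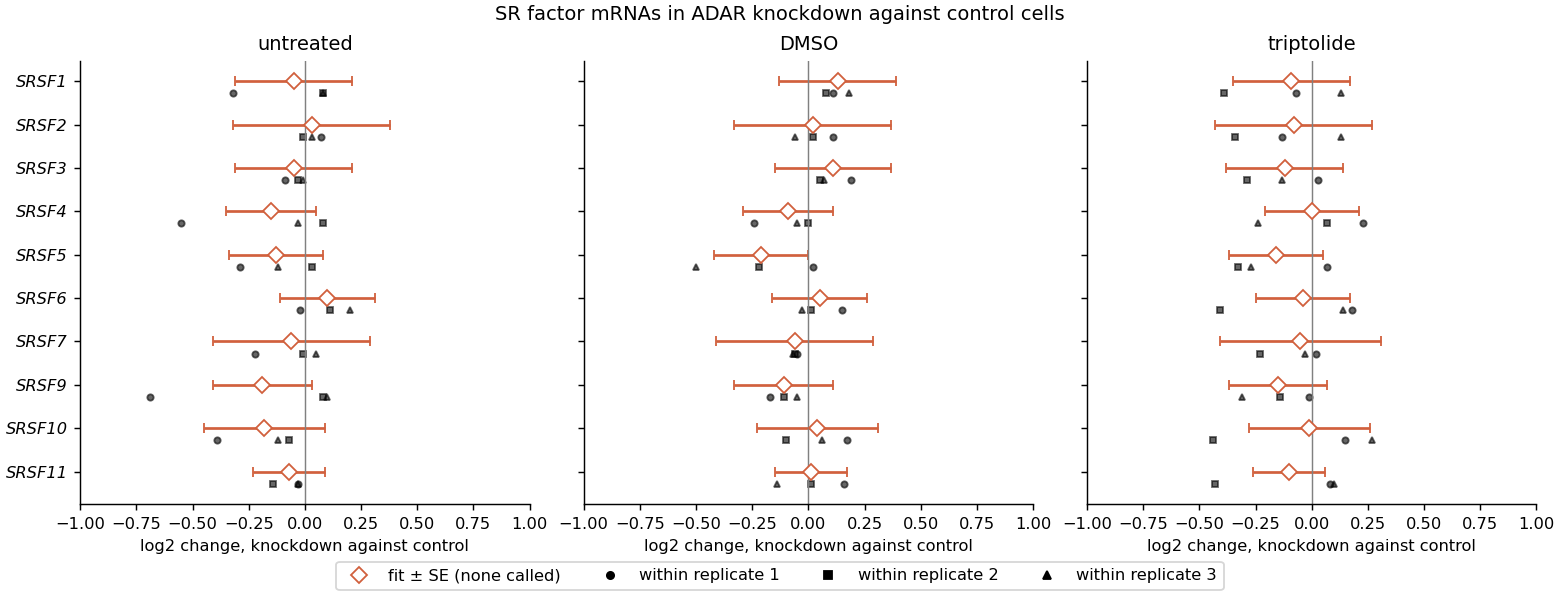
Log2 change of each SR factor mRNA in ADAR knockdown against control cells, by treatment; open diamonds are the fit with its SE, none of them called, and small symbols below them the 3 differences within replicate numbers. The fitted values lay between -0.21 and 0.13 in all 3 treatments.

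No change of a member with the vehicle alone was called either. DMSO against untreated gave log2 values between -0.04 and 0.20 in knockdown cells and between -0.08 and 0.07 in control cells. No member was called in either line by edgeR, with or without the block, and of all genes 0% were called in both lines and both fits. No member reached an unadjusted p under 0.05 there, and the libraries overlapped for all 10, but the shares of all genes were not computed. Of the 10 members 8 lay above 0 in knockdown cells and 6 in control cells, where 47.5% and 44.3% of all genes did. The SEs ran from 0.16 for SRSF11 to 0.35 for SRSF2 and SRSF7, so differences well above these values could be missed.

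Replicate numbers left a mark on most members. The log2 distance of SRSF7 from its group mean, averaged over the 6 groups, was 0.37 in replicate 3 and -0.45 in replicate 2. That of SRSF2 was 0.43 in replicate 3 and -0.26 in replicate 2, and that of SRSF10 0.26 in replicate 3 and -0.31 in replicate 1. For SRSF11 it lay between -0.05 and 0.06. As a description over 18 libraries, which share the treatments, the TMM-scaled log2 level of each member was correlated with the mean of the other 9. The r lay between 0.82 (SRSF1) and 0.96 (SRSF3 and SRSF6), except SRSF5 at 0.21 and SRSF9 at -0.46. With library totals and mitochondrial scaling, on which SRSF9 was lower with triptolide, these correlations were not computed.

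Other genes were ranked by how closely their TMM-scaled log2 level followed the members' mean over the same 18 libraries. Of 8430 protein-coding genes with a mean of at least 10 CPM, the nearest was TDG, a thymine DNA glycosylase of base excision repair, at r = 0.995. UTP18, of the small-subunit processome that makes ribosomes, stood at 0.986, and FASTKD2, a mitochondrial RNA-binding protein, at 0.983. DNAJA2, a co-chaperone, and HSPA8, the constitutive HSP70 chaperone, also stood at 0.983.

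Other proteins with RS domains resembled the members in direction under triptolide. Of 26 listed SR and SR-related genes 25 were tested. edgeR called 1 higher and 16 lower in knockdown cells, and 1 higher and 15 lower in control cells, with median log2 changes of -0.99 and -0.92 beside 0.04 and 0.03 for all genes. Of all genes 16.7% were called higher and 18.9% lower in knockdown cells, and 14.8% and 16% in control cells, shares against which each list below is to be read. With the block the SR-related genes split into 2 higher and 18 lower in each line. RSRC2, a protein with an RS-rich stretch, fell by 2.43 on the log2 scale in knockdown cells (adjusted p = 1.24e-05), and fell by 2.24 in control cells (3.44e-05). SCAF8, which binds the tail of RNA polymerase II and acts in 3′ end choice, fell by 2.22 and 2.29, and SFSWAP, the human relative of the fly's suppressor-of-white-apricot, by 1.46 and 1.59.

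The TRA2 pair of sequence-specific enhancer binders diverged. TRA2B fell by 1.04 in knockdown (adjusted p = 0.00843) and 1.11 in control cells (0.00661) on the log2 scale, a call lost without the libraries numbered 1 (0.123 and 0.113). That setting had no block. With the block and all libraries, edgeR's adjusted p for TRA2B was 2.44e-06 and 2.41e-06. TRA2A stood at 0.44 ± 0.19 in knockdown (adjusted p = 0.0799, and 0.0176 with the block) and 0.42 ± 0.19 in control cells (0.101, and 0.029), values that turned to -0.28 and -0.22 with library totals and to -0.95 and -0.30 with mitochondrial scaling. SRSF12, a close relative of SRSF10, was nearly absent outside triptolide. It had 23, 63 and 26 counts in knockdown cells with triptolide, against 1, 2 and 1 with DMSO, and 27, 58 and 16 counts in control cells with triptolide, against 2, 0 and 3 with DMSO. It was called higher in both lines (adjusted p = 0.000763 and 0.00145), at a mean of only 1.64 and 1.58 CPM with triptolide. SRSF8 was listed at 0 counts in all 18 libraries. Its overlap with other annotated genes was not examined, and reads over shared bases can fall in the tally of ambiguous reads. The 0 counts thus do not show that SRSF8 was not expressed. A limit of 3 counts per library is at most 0.112 CPM if CPM is taken on plain library totals, without TMM scaling. The limit on the TMM scale was not computed.

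Among the genes that phosphorylate, dephosphorylate, import or export SR proteins, 3 of 17 were called higher and 8 lower in knockdown cells, and 2 higher and 8 lower in control cells (medians -0.69 and -0.67). Of all genes 16.7% and 14.8% were called higher, so the higher calls were about as frequent as elsewhere. With the block the split was 3 and 9 in knockdown and 4 and 10 in control cells. With library totals the split was 1 and 11 in knockdown and 2 and 11 in control cells, and with mitochondrial scaling 1 and 12, and 1 and 9. Of all 21285 genes, library totals called 1497 higher and 8509 lower in knockdown, and 1596 and 7581 in control cells. Mitochondrial scaling called 821 and 11443, and 1063 and 6008. Of the CLK kinases, which act on SR proteins in the nucleus, CLK1, CLK2 and CLK4 did not move together on the TMM scale. CLK3 was also in the list, but its value is not given here. CLK2 fell by 1.34 in knockdown (adjusted p = 0.000117) and 1.48 in control cells (6.64e-05) on the log2 scale, and CLK4 by 1.38 (0.00104) and 1.35 (0.00144). CLK1 rose by 1.23 ± 0.29 (0.00346) and 1.42 ± 0.30 (0.00159) on the TMM scale, but not past the threshold with library totals in knockdown cells (0.52, 0.128) or with mitochondrial scaling in either line (-0.11, 0.851, in knockdown cells, and 0.81, 0.216, in control cells).

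PRPF4B, a kinase of the spliceosome, fell by 2.14 in knockdown (adjusted p = 4.99e-06) and 1.81 in control cells (2.97e-05). Of the cytoplasmic kinases, SRPK1 was not called (-0.18 ± 0.21, 0.525, and -0.04 ± 0.21, 0.90), though library totals called it lower in both lines (-0.90 and -0.70), as mitochondrial scaling did in knockdown cells (-1.63). SRPK2 fell by 0.69 (0.00849) and 0.56 (0.0315), and TNPO3, the import receptor for phosphorylated SR proteins, by 0.84 (0.00258) and 0.67 (0.0129). Leaving out single libraries or replicate numbers ended the SRPK2 call in 2 of 9 settings in knockdown and 7 of 9 in control cells, and the TNPO3 call in 0 and 3 of 9. These settings had no block. With the block and all libraries, edgeR called both genes lower in both lines, at an adjusted p of at most 0.00069. NXF1, which is no kinase but the export receptor that SRSF3 and SRSF7 recruit, rose by 2.4 ± 0.24 in knockdown (2.23e-06) and 2.37 ± 0.24 in control cells (3.39e-06), and was called higher under each of the scalings.

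Of 24 tested hnRNP proteins, many of which oppose SR proteins at exons, 0 were called higher and 6 lower in knockdown cells, and 0 higher and 5 lower in control cells, with medians of -0.10 and -0.06. Of all genes 18.9% and 16% were called lower, so most genes of either kind were not called. With the block 1 was called higher and 9 lower in knockdown cells, and 3 higher and 8 lower in control cells, where 28.9% and 28% of all genes were in knockdown and 26% and 25.9% in control cells. With DESeq2 size factors the split in control cells was 1 and 5, beside 3493 and 3134 of all 21285 genes. Mitochondrial scaling called 24 of 24 lower in knockdown cells and 11 in control cells, and library totals 14 and 11. Of all 21285 genes, mitochondrial scaling called 11443 lower in knockdown and 6008 in control cells, and library totals 8509 and 7581. HNRNPDL fell by 2.18 on the log2 scale in knockdown cells (adjusted p = 2.21e-05), and fell by 2.15 in control cells (3.69e-05), and HNRNPF by 0.91 (0.000222) and 0.86 (0.000437). HNRNPA0 fell by 1.33 (0.00737) and 0.98 (0.0412), calls that were lost on leaving out libraries or numbers in 1 of 9 settings in knockdown and 6 of 9 in control cells. These settings had no block. With the block and all libraries, edgeR's adjusted p for HNRNPA0 was 1.32e-07 and 1.13e-05.

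The genes of splice site recognition by U1, U2 and U2AF showed no common direction on the TMM scale. Of 28 listed 27 were tested, 4 were called higher and 2 lower in knockdown cells, and 2 higher and 2 lower in control cells, with medians of 0.06 and -0.01. With the block the split was 8 higher and 6 lower in knockdown and 8 and 7 in control cells, shares near those of all genes in that fit. With library totals the split was 0 and 10 in knockdown and 0 and 8 in control cells, with mitochondrial scaling 0 and 22, and 0 and 10, and with DESeq2 size factors 5 and 2, and 3 and 1. Of all 21285 genes, library totals called 1497 higher and 8509 lower in knockdown, and 1596 and 7581 in control cells. Mitochondrial scaling called 821 and 11443, and 1063 and 6008, and DESeq2 size factors 3911 and 3771, and 3493 and 3134. SNRPD2, an Sm core protein, was called higher (0.91 ± 0.30, adjusted p = 0.0234, and 0.82 ± 0.30, 0.0432), as was the branch point contact SF3B6 (0.69 ± 0.21, 0.0173, and 0.68 ± 0.21, 0.0221). SNRPD1, its partner in the Sm ring, was called lower (-1 ± 0.27, 0.00734, and -0.74 ± 0.27, 0.0427), as was SF3B2 (-0.61 ± 0.18, 0.012, and -0.55 ± 0.18, 0.0257). Each of these 4 lost its call in at least 1 setting that left out libraries or numbers, with adjusted p up to 0.151, 0.115, 0.0918 and 0.0947 in knockdown and 0.292, 0.127, 0.189 and 0.208 in control cells for SNRPD2, SF3B6, SNRPD1 and SF3B2. These settings had no block. With the block and all libraries, edgeR called each of the 4 in both lines, at an adjusted p of at most 0.00101. Both higher ones lost their call with library totals and turned below 0 with mitochondrial scaling. No gene of the 4 lists was called in the other 6 comparisons, with or without the block.

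**Figure D5:**
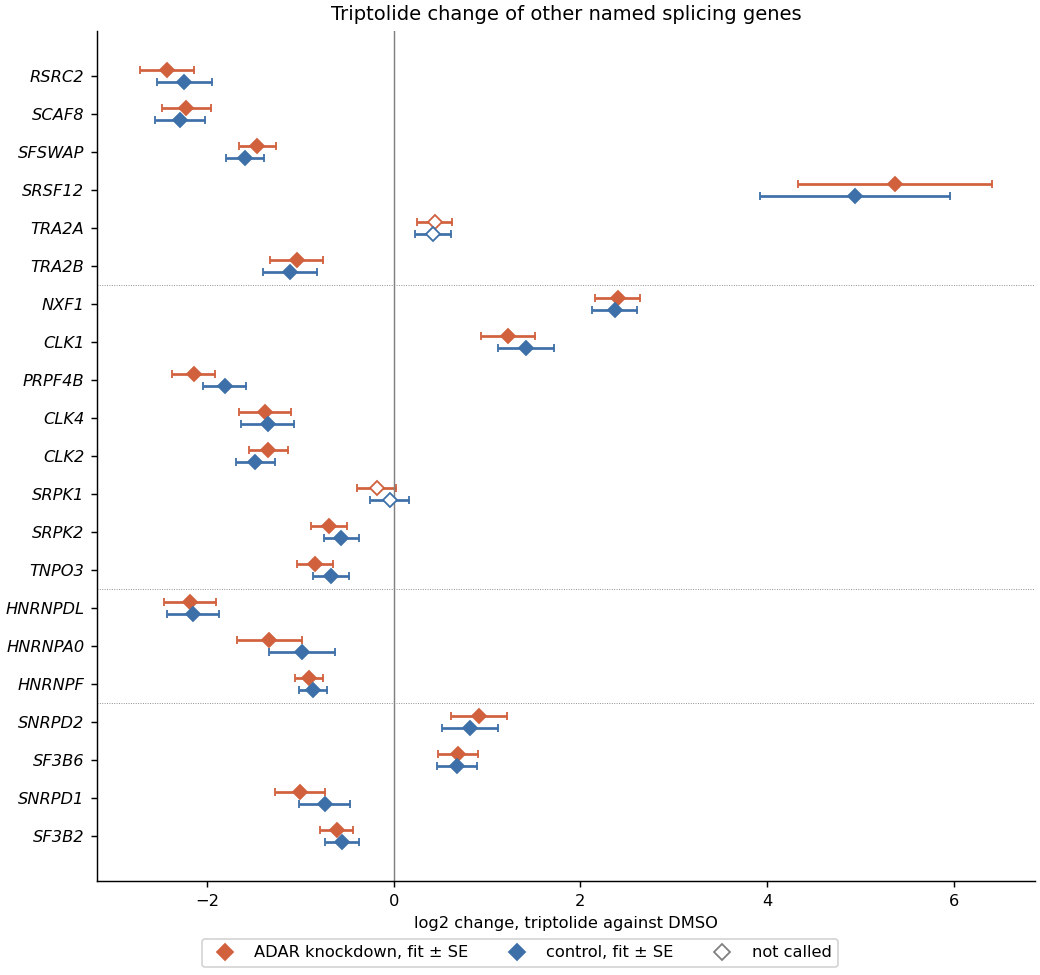
Log2 change with triptolide against DMSO of the named genes outside the family, in ADAR knockdown (upper of each pair) and control cells, as fit and SE, open where not called; dotted lines part the lists of SR-related proteins, of kinases, import and export, of hnRNP proteins and of splice site recognition. SRSF12, NXF1 and CLK1 were called higher and RSRC2, SCAF8, PRPF4B and HNRNPDL were lowest on this TMM scale, and scaling to mitochondrial mRNAs ended the calls of CLK1, SNRPD2 and SF3B6.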

How the data were processed

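Counts per gene were deposited as raw whole numbers, 1 library per file. The submitters' processing notes name STAR 2.4.2a, HTSeq 0.6.1, DESeq2 1.4.5, R 3.1 and the build hg19. Of 60252 gene IDs 58822 (97.6%) matched GENCODE release 44 on GRCh37. The 5 tallies of unassigned reads (24.9 to 35.4% of reads in all) entered no library size and no test. Replicates of the same group differed by a chi-square of at least 62 per degree of freedom, so no library was a copy of another in its group. Libraries of different groups were not compared in this way.

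After TMM scaling, counts were tested with edgeR 4.0.16 (R 4.3.3) in a quasi-likelihood fit of all 18 libraries with 12 residual degrees of freedom, after a check on simulated data. Adjusted p-values are Benjamini-Hochberg values, two-sided, over 21285 genes within each of 8 comparisons, called under 0.05; SE is the change over the root of its F. TMM-scaled CPM gives levels.

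Residuals of libraries with the same replicate number correlated across genes at r = 0.31 to 0.69 (45 pairs), those with different numbers at -0.52 to 3.8e-05 (90 pairs), and 18 of 18 libraries correlated best with their own number. Equal numbers thus pair libraries, and a fit with them as a block (10 residual degrees of freedom) stands beside results it changes.

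The members, the 4 lists and the tests were chosen with earlier results of these data known. Named from each list were at most 3 genes higher and 3 lower, called in both lines at a mean of at least 1 CPM, with the largest smaller change, beside CLK1, CLK2, CLK4, SRPK1, SRPK2, TNPO3, TRA2A, TRA2B, SRSF8 and SRSF12. Alternatives were other scalings, no low-count filter, the block, DESeq2 1.42.0, a fit of only the libraries compared, and leaving out libraries. Sequences are RefSeq's. Limits of 3 counts cover counting error only.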

Additional observations from a re-analysis of the deposited data

Results flagged for a closer look

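SRSF3 in knockdown against control cells lay above 0 with DMSO in all 3 pairs of libraries (log2 0.19, 0.05 and 0.07 within replicates 1, 2 and 3; fit 0.11 ± 0.26) and below 0 untreated in all 3 (-0.09, -0.03 and -0.01; fit -0.05 ± 0.26). It was picked out only for its opposite signs in every pair, from a search over the members and comparisons. How many such patterns signs alone would give in that search was not computed, so the pattern cannot be told from chance. Both fitted values were smaller than their SE, and neither was called. The difference between the treatments was not tested.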

How the results depend on the processing

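The count of members called under triptolide was 6 in each line and within 1.5 times of it in all settings run but scaling to 13 mitochondrial mRNAs, which called 10 of 10 lower in knockdown cells (8 in control cells). On that scale 11443 of all 21285 genes were called lower in knockdown and 6008 in control cells. Leaving out libraries or replicate numbers (21 of the 28 settings), always without the block, gave 4 to 8 called in knockdown and 4 to 6 in control cells. With the replicate block 9 and 8 were called. The other 6 comparisons gave 0 throughout.

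SRSF9 under triptolide turned to -0.38 (knockdown) and -0.23 (control) with library totals and to -1.10 and -0.48 with mitochondrial scaling. Of the other genes named, TRA2A turned to -0.28 and -0.22 with library totals and -0.95 and -0.30 with mitochondrial scaling, SF3B6 to -0.02 (knockdown) with library totals and -0.68 and -0.06 with mitochondrial scaling, SNRPD2 to -0.53 and -0.09 and CLK1 to -0.11 (knockdown) with mitochondrial scaling. Mitochondrial scaling also turned the interactions of SRSF4 (-0.47) and SRSF5 (-0.59), knockdown against control with DMSO for SRSF4 (0.51), SRSF5 (0.34), SRSF7 (0.50) and SRSF9 (0.46), and DMSO against untreated knockdown cells for SRSF5 (0.52) and SRSF6 (0.56). Leaving out libraries turned knockdown against control with triptolide for SRSF3 (-0.41 to 0.18), SRSF7 (-0.57 to 0.44) and SRSF11 (-0.20 to 0.10), the SRSF7 interaction (-0.51 to 0.50) and untreated SRSF9 (-0.35 to 0.09). None of these was called except SRSF9 in knockdown cells with mitochondrial scaling, and the causes were not tested. Another 190 sign changes of uncalled member values stayed within 1 SE of the value reported. With 3 libraries per group, SEs of 0.16 to 0.50 on the log2 scale (at most 0.35 with the block) limit what could be detected between lines. Settings for genes outside the family were added after the data were seen.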
